A study of Homo sapiens with 4 samples.

Results

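The 14-3-3 proteins are a family of small adaptor proteins. In humans they are encoded by 7 genes, YWHAB (14-3-3 beta), YWHAE (epsilon), YWHAG (gamma), YWHAH (eta), YWHAQ (theta), YWHAZ (zeta) and SFN (sigma). All 7 were found by symbol among the 19974 rows of each deposited table. The family was selected on a measured value, the lower level of YWHAE after silencing of LINC00152, so the difference of YWHAE between the groups is given here as a description with no test. The other 6 isoforms did not enter that choice and were tested in the fit over all genes. The question put to the data was whether the lower level of YWHAE was shared by the other isoforms or offset by them.

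A 14-3-3 protein is a dimer that forms a pair of grooves, each of which holds a phosphorylated serine or threonine of a client protein. Binding can hold a client in the cytoplasm, block or stabilise its activity, or keep it away from a phosphatase. Clients include the RAF kinases, the CDC25 phosphatases, the FOXO factors, the cell death protein BAD and YAP1, the main effector of the Hippo pathway. Most isoforms form mixed dimers with each other, and epsilon does so by preference, while sigma mainly pairs with itself. SFN is an epithelial isoform and a p53 target that keeps CDK1 and its partners out of the nucleus after DNA damage.

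HCT116 cells, a human colorectal carcinoma line, were transfected for 36 h with 100 nM of a non-targeting control siRNA (si-NC) or of siRNA against the long noncoding RNA LINC00152 (si-152), with 2 libraries in each group. The libraries of a group were labelled as biological replicates, and nothing said whether they came from separate passages or days. The p-values therefore rest on the spread between these libraries. For each gene, limma, the test used here, draws that spread towards that of genes at like levels. The values were taken to be FPKM, that is fragments scaled to transcript length and library size. Levels of different genes can be compared on this scale only where their reads were counted alike. The unit is not named in the tables and the read depth is unknown. The FPKM values of a library summed to between 424754 and 534311, and 14589 to 14686 genes were above 0. No row carried the symbol LINC00152 or its other symbol CYTOR, so the silencing of LINC00152 could not be checked by symbol. Of 10 colon epithelial markers, 9 reached 1 FPKM in at least 2 libraries, and VIL1 did not. Their summed level was 3324 to 3851 FPKM in si-NC and 2608 to 3258 FPKM in si-152. Most of that sum came from KRT8, KRT18 and KRT19, so it says little about the other markers. Of the fibroblast, leukocyte and endothelial markers, COL1A1 and CD68 alone reached 1 FPKM in 2 libraries, with summed levels per list of at most 8.13 FPKM. In these cultures, fewer cells with a transcript and less transcript per cell cannot be told apart.

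The isoforms are alike in protein but differ in the sequence of their annotated transcripts. Whether reads were assigned to the right isoform was not tested. Between the coding sequences of the family, 62.1% to 67.1% of aligned bases were identical in the 6 pairs that include YWHAE, and 66.9% to 78.9% in the 15 pairs that do not. YWHAG and YWHAH were the closest pair. The 60-base stretch of the YWHAE coding sequence that is closest in sum to the other isoforms shown is given here for 6 members. It was sought within single exons and without YWHAZ, and the closest stretch of other pairs was not sought. Capitals mark the bases that differ from YWHAE, and each sequence is given 5′ to 3′ on the coding strand, from the GRCh38 genome with GENCODE release 29.
YWHAE: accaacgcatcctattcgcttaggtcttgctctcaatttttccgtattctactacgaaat
YWHAB: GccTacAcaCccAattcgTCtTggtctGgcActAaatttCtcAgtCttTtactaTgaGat
YWHAG: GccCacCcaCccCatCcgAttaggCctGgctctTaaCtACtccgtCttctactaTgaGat
YWHAH: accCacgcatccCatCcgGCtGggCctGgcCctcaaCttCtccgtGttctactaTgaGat
YWHAQ: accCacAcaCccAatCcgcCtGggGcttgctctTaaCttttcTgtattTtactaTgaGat
SFN: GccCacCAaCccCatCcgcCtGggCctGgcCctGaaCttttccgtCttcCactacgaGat
The YWHAE stretch lies in exon 4 of 6 of its transcript, on the minus strand of chr17:1361119-1361178, inside the gene at 1344272 to 1400378 of chromosome 17. The other stretches are at chr20:44905032-44905091 (plus strand, exon 5 of 7 of YWHAB), chr7:76329764-76329823 (minus, exon 2 of 2 of YWHAG), chr22:31956549-31956608 (plus, exon 2 of 2 of YWHAH), chr2:9588205-9588264 (minus, exon 3 of 5 of YWHAQ) and chr1:26863701-26863760 (plus, in the single exon of SFN). In the other isoforms shown, 14 to 17 of the 60 bases differed from YWHAE. No run of 50 bases was shared between the transcripts of any isoforms. Of the 2162 windows of 50 bases in the YWHAE transcript of 2211 bases, 120 (5.55%) also occurred in transcripts of other genes, which included the pseudogenes YWHAEP1 and YWHAEP5, and none of its 100-base windows did. The share of 50-base windows found elsewhere was 12.6% in YWHAZ, 3.21% in YWHAH and 2.12% in YWHAQ, and it was 0 in YWHAB, YWHAG and SFN. Reads within such windows are of uncertain origin, and how they were treated upstream is not given in the sources used here.

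The FPKM values of the isoforms were very unequal, and their order was almost the same in all 4 libraries. The tool and annotation behind the values are unknown, so whether the reads of a member, YWHAE included, were undercounted was not tested. YWHAZ was the highest, at 561.1 and 516.5 FPKM under si-NC, against 598.2 and 552.5 FPKM under si-152. SFN came next, at 187.7 and 249.8 FPKM under si-NC, against 173.4 and 264.0 FPKM under si-152, followed by YWHAQ, at 135.8 and 140.4 FPKM under si-NC, against 158.4 and 144.0 FPKM under si-152. Each of these exceeded the next in all 4 libraries, and their ranges did not overlap. YWHAB was at 95.5 and 92.2 FPKM under si-NC, against 100.2 and 101.3 FPKM under si-152. YWHAH was at 85.3 and 96.2 FPKM under si-NC, against 103.0 and 101.9 FPKM under si-152. The order of YWHAB and YWHAH was not resolved, since YWHAB was the higher of the pair in 1 of 4 libraries. YWHAG lay below both, at 52.6 and 42.7 FPKM under si-NC, against 59.8 and 45.6 FPKM under si-152. YWHAE was the lowest in every library, at 8.81 and 23.0 FPKM under si-NC, against 2.50 and 5.19 FPKM under si-152. In si-NC, the mean level of the other isoforms was between 2.99 times (YWHAG) and 33.8 times (YWHAZ) that of YWHAE.

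**Figure D1:**
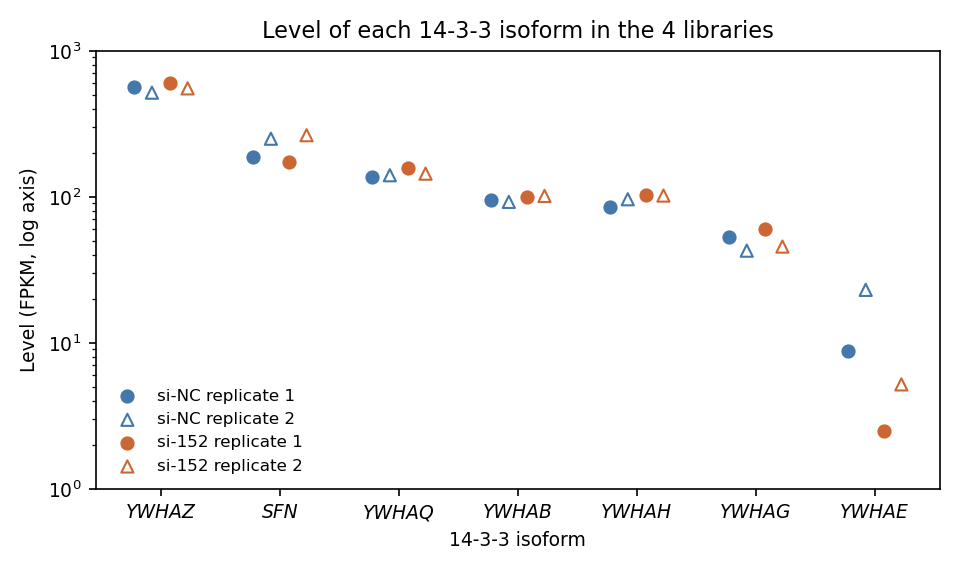
Level of each 14-3-3 isoform (FPKM, log axis) in the 2 si-NC libraries (blue) and the 2 si-152 libraries (orange), with circles for replicate 1 and triangles for replicate 2. YWHAE lies lowest in all 4 libraries and both of its si-152 values lie below both si-NC values, whereas SFN is high in both libraries of replicate 2.

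YWHAE was lower in both si-152 libraries than in either si-NC library. The mean was 15.9 ± 10.1 FPKM (SD, n = 2) in si-NC and 3.84 ± 1.90 FPKM (SD, n = 2) in si-152, a ratio of 0.241. On the log2(FPKM + 1) scale, the difference was -1.49 between the libraries numbered 1, -1.96 between those numbered 2 and -1.72 between the group means. Taken library by library, the 4 differences between a si-152 and a si-NC library ran from -2.78 to -0.66, so the direction was shared and the size was not well fixed. Without one library at a time, the difference of the means ranged from -2.37 (without si-NC replicate 1) to -1.08 (without si-NC replicate 2). The mean of YWHAE exceeded that of 64.2% of the 11222 tested genes in si-NC and of 22.4% in si-152.

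The si-NC libraries themselves disagreed on YWHAE. The gap between 8.81 and 23.0 FPKM was 1.29 on the log2(FPKM + 1) scale, and 45 of the 11222 tested genes (0.401%) had a larger one. Among the 4089 genes with a si-NC mean within 2-fold of that of YWHAE, 13 (0.318%) had a larger gap. In the other 6 isoforms, the ratio of the si-NC library numbered 2 to that numbered 1 lay between 0.812 (YWHAG) and 1.33 (SFN). YWHAE was also the higher in replicate 2 of si-152, at 5.19 against 2.50 FPKM. On the log2(FPKM + 1) scale, YWHAE therefore varied more than any other member within each group as well as between the groups. In FPKM, SFN and YWHAZ had larger SDs than YWHAE in both groups.

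None of the other 6 isoforms passed a test for a difference between si-152 and si-NC. Genes were tested with limma on log2(FPKM + 1) where any 2 of the 4 libraries reached 1 FPKM, which all 7 isoforms did. An adjusted p under 0.05 was reached by 0.0178% of the tested genes (2 of 11222). The looser rule, which asked for an unadjusted p under 0.05 and a change of more than 1.5-fold, was met by 0.597% (67 genes) with higher and 1.06% (119 genes) with lower levels in si-152. Of the 6 isoforms, 0 passed either rule and 0 had an unadjusted p under 0.05. At an unadjusted p under 0.05, 492 of all tested genes were counted.

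The log2 differences of these 6 isoforms were small and lay between -0.02 and 0.18, with a median of 0.12 against 0.02 over all tested genes. YWHAH had the highest difference, 0.18 (SE 0.17, 95% interval -0.21 to 0.56), with an unadjusted p of 0.331 by limma. The differences of YWHAG and YWHAQ were 0.14 (95% interval -0.30 to 0.57) and 0.13 (-0.28 to 0.53). Those of YWHAB and YWHAZ were 0.10 (-0.28 to 0.48) and 0.09 (-0.43 to 0.62). SFN was at -0.02 (SE 0.25, 95% interval -0.58 to 0.55), and at 0.07 after quantile normalization. Each adjusted p was 0.9996 by limma with Benjamini-Hochberg adjustment. All 6 intervals include 0, and the highest upper limit, that of YWHAZ, was 0.62.

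**Figure D2:**
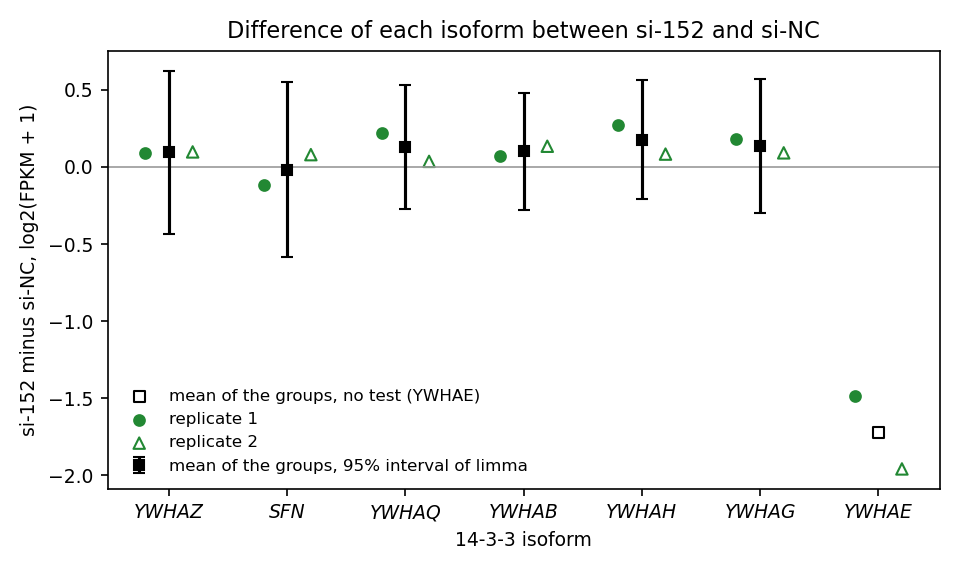
Difference of each isoform between si-152 and si-NC on the log2(FPKM + 1) scale. Filled squares with bars give the difference of the group means with the 95% interval of limma, the open square gives YWHAE with no interval, and green circles and triangles give the differences between the libraries numbered 1 and 2. YWHAE lies at -1.72 and the other 6 isoforms lie between -0.02 and 0.18.

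YWHAB, YWHAH and YWHAQ were higher in both si-152 libraries than in either si-NC library, and 0 of the 6 isoforms were lower in both. Of all tested genes, 16.5% were separated in the higher direction in this way and 13.9% in the lower. The groups overlapped in YWHAG, YWHAZ and SFN. Between same-numbered libraries, 5 of the 6 were higher in si-152 in both pairs, by 0.07 and 0.13 for YWHAB, 0.18 and 0.09 for YWHAG, 0.27 and 0.08 for YWHAH, 0.22 and 0.04 for YWHAQ, and 0.09 and 0.10 for YWHAZ. Among all tested genes, 35.6% (4000) were higher in both pairs. The median difference of all tested genes was -0.03 in the first pair and 0.07 in the second. SFN followed the replicate number. It was at 187.7 and 173.4 FPKM in the libraries numbered 1 and at 249.8 and 264.0 FPKM in those numbered 2, with differences of -0.11 and 0.08.

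The family as a whole was not lower in si-152. The 7 isoforms summed to 1127 and 1161 FPKM in si-NC (1144 ± 24.2, SD, n = 2) and to 1196 and 1215 FPKM in si-152 (1205 ± 13.4, SD, n = 2), a ratio of 1.05. Both si-152 sums lay above both si-NC sums. YWHAE made up 0.782% and 1.98% of the sum in si-NC and 0.209% and 0.427% in si-152. YWHAZ alone held 44.5% to 50.04% of the sum and SFN 14.5% to 21.7%. The mean of YWHAE differed by -12.1 FPKM between si-152 and si-NC, and the summed mean of the other 6 was 73.3 FPKM higher in si-152, by 75.1 FPKM between the libraries numbered 1 and by 71.5 FPKM between those numbered 2. The sum was given no test. It includes YWHAE, which was chosen with its difference known, and 2 against 2 libraries cannot give a two-sided exact permutation p under 0.333. The separation of the groups and the differences between same-numbered libraries depended on the scale. With median-ratio size factors the sums were 1085 and 1222 in si-NC and 1182 and 1210 in si-152, and after quantile normalization they were 1164 and 1056 in si-NC and 1368 and 1147 in si-152, so that the groups overlapped both times. With size factors, the sum of the 7 isoforms was lower in si-152 between the libraries numbered 2, so the pairs did not share a direction.

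**Figure D3:**
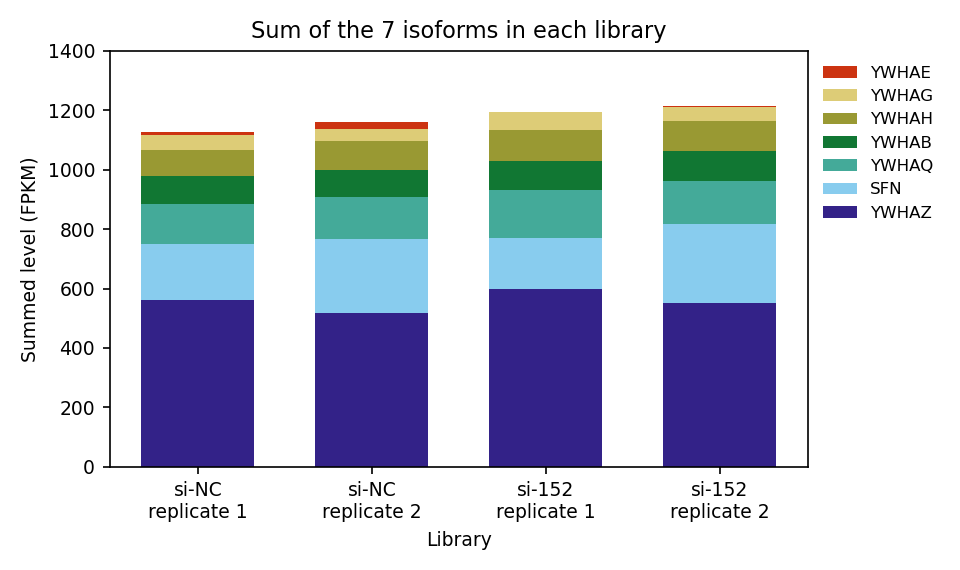
Summed level of the 7 isoforms (FPKM) in each library, with 1 colour for each isoform and the axis starting at 0. YWHAZ fills 44.5% to 50.04% of each bar, and YWHAE, at the top, fills at most 1.98%.

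Genes whose products bind 14-3-3 proteins were followed through a list of 58 clients, all of which were tested. None passed either rule, and 0 had an unadjusted p under 0.05 by limma (the lowest was 0.0511, for WWTR1). In si-152, 41 were higher and 17 lower, with a median log2 difference of 0.14, against 6085 higher and 5137 lower among all tested genes with a median of 0.02. The groups did not overlap in 15 clients that were higher (25.9%) and in 7 that were lower (12.1%), against 16.5% and 13.9% of all tested genes. Among the separated clients, the largest differences were those of YAP1, WWTR1 and ABL1. YAP1 and WWTR1 (TAZ) are transcriptional coactivators that 14-3-3 proteins retain in the cytoplasm once LATS kinases have phosphorylated them. YAP1 was at 19.0 and 13.6 FPKM under si-NC, against 24.9 and 19.4 FPKM under si-152, a log2 difference of 0.42 (SE 0.21), and WWTR1 was at 18.1 and 14.3 FPKM under si-NC, against 22.1 and 21.1 FPKM under si-152, a difference of 0.40 (SE 0.18). ABL1, a tyrosine kinase that 14-3-3 also holds in the cytoplasm, differed by 0.34 (SE 0.20). The adjusted p of each was 0.9996 by limma. Without si-NC replicate 1 or si-152 replicate 2, the log2 differences of YAP1 and of SSH1, a phosphatase of cofilin, were 0.60 to 0.72. Each of these fits left a group without a replicate.

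By role, the clients did not move in a single direction. CDC25A, CDC25B and CDC25C, which activate cyclin-dependent kinases and are restrained by 14-3-3 binding, were at lower levels in both si-152 libraries, with log2 differences of -0.08, -0.33 and -0.33, a separation found in 13.9% of all tested genes. This grouping was described with its values in view. For CDC25B the values were 146.0 and 118.2 FPKM under si-NC, against 109.3 and 99.7 FPKM under si-152. WEE1 and CHEK1, kinases of the same checkpoint, differed by -0.10 and -0.04 with overlapping groups. The forkhead factors FOXO1, FOXO3 and FOXO4, which 14-3-3 proteins keep out of the nucleus, had differences of 0.15 to 0.23. The RAF kinases with the scaffold KSR1 lay between -0.05 and 0.21, the BCL2 family clients BAD, BAX and BCL2L11 between -0.15 and 0.14, the class IIa histone deacetylases between -0.09 and 0.23, and the clients in mTORC1 and insulin signalling between -0.15 and 0.26. None of these differences reached an unadjusted p under 0.05.

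Of the 39 kinases and phosphatases known to write or remove the phosphorylated sites, or to act on 14-3-3 proteins, 36 were tested. The rest did not pass the filter on low values. None passed either rule, with 0 at an unadjusted p under 0.05. In si-152, 25 were higher and 11 lower, against 6085 and 5137 of all tested genes, with a median log2 difference of 0.09. The groups did not overlap in 9 that were higher (25.0%) and 3 that were lower (8.33%), against 16.5% and 13.9% of all tested genes. LATS2, a Hippo kinase that creates the 14-3-3 site of YAP1, was at 3.12 and 2.30 FPKM under si-NC, against 4.10 and 3.66 FPKM under si-152, a difference of 0.40 (SE 0.21). AKT1, which phosphorylates BAD and the FOXO factors, was at 30.6 and 30.8 FPKM under si-NC, against 37.7 and 40.8 FPKM under si-152, a difference of 0.34 (SE 0.16). PIM2, a survival kinase that also targets BAD, differed by -0.28 (SE 0.19), with 6.12 and 5.92 FPKM under si-NC, against 4.83 and 4.75 FPKM under si-152. The subunits of the phosphatases PP1 and PP2A lay between -0.11 and 0.19.

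YWHAE lies near the end of the short arm of chromosome 17, and 29 genes around it were examined to see whether the region moved with it. Of these, 25 were tested, 13 of which were higher and 12 lower in si-152, with a median log2 difference of 0.06. The groups did not overlap in 5 that were higher (20%) and 4 that were lower (16%), shares close to the 16.5% and 13.9% of all tested genes. None passed adjustment, and 1 met the looser rule, in the direction in which 1.06% of all tested genes did. SERPINF1, which encodes the secreted factor PEDF and starts 361.6 kb from YWHAE, was that neighbour, with 2.10 and 1.67 FPKM under si-NC, against 0.859 and 0.937 FPKM under si-152, a difference of -0.60 (SE 0.20, unadjusted p = 0.0146, adjusted p = 0.926 by limma). It passed the filter on low values through the si-NC libraries alone, was not tested without either of them, and did not meet the rule without si-152 replicate 1. With no filter its unadjusted p was 0.00906 (adjusted p = 0.907 by limma). Among the other separated neighbours, DPH1, an enzyme of diphthamide synthesis, differed by 0.44 (SE 0.20) and SGSM2 by 0.25 (SE 0.18). DPH1 overlaps OVCA2, so reads of these neighbours are uncertain.

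Of the listed genes, the nearest to YWHAE on either side were at low levels, with groups that overlapped. On one side was the signalling adaptor CRK, with its start 62.8 kb from that of YWHAE. CRK was at 2.22 and 1.07 FPKM under si-NC, against 1.89 and 0.741 FPKM under si-152. Unlike YWHAE, which was the higher there, CRK was lower in both libraries numbered 2. Its log2 differences between same-numbered libraries were -0.16 and -0.25. On the other side, ABR, with its start at -170.6 kb, was at 0.505 and 2.07 FPKM under si-NC, against 0.310 and 1.77 FPKM under si-152, so that, like YWHAE, it was the higher in both libraries numbered 2, with differences of -0.20 and -0.15 between same-numbered libraries. Neither gene met either rule with all 4 libraries, and ABR met the looser one without si-NC replicate 1 (-0.69, unadjusted p = 0.0241 and adjusted p = 0.636 by limma). The levels of neighbouring genes were far apart. The motor protein gene MYO1C was at 44.8 to 58.1 FPKM and the lipid transfer protein gene PITPNA at 15.3 to 19.6 FPKM, whereas TIMM22, a subunit of a mitochondrial import complex, stayed at or under 0.414 FPKM. PRPF8, a core protein of the spliceosome, was at 4.52 and 3.22 FPKM under si-NC, against 2.60 and 7.10 FPKM under si-152, with the si-152 libraries on either side of the si-NC libraries.

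**Figure D4:**
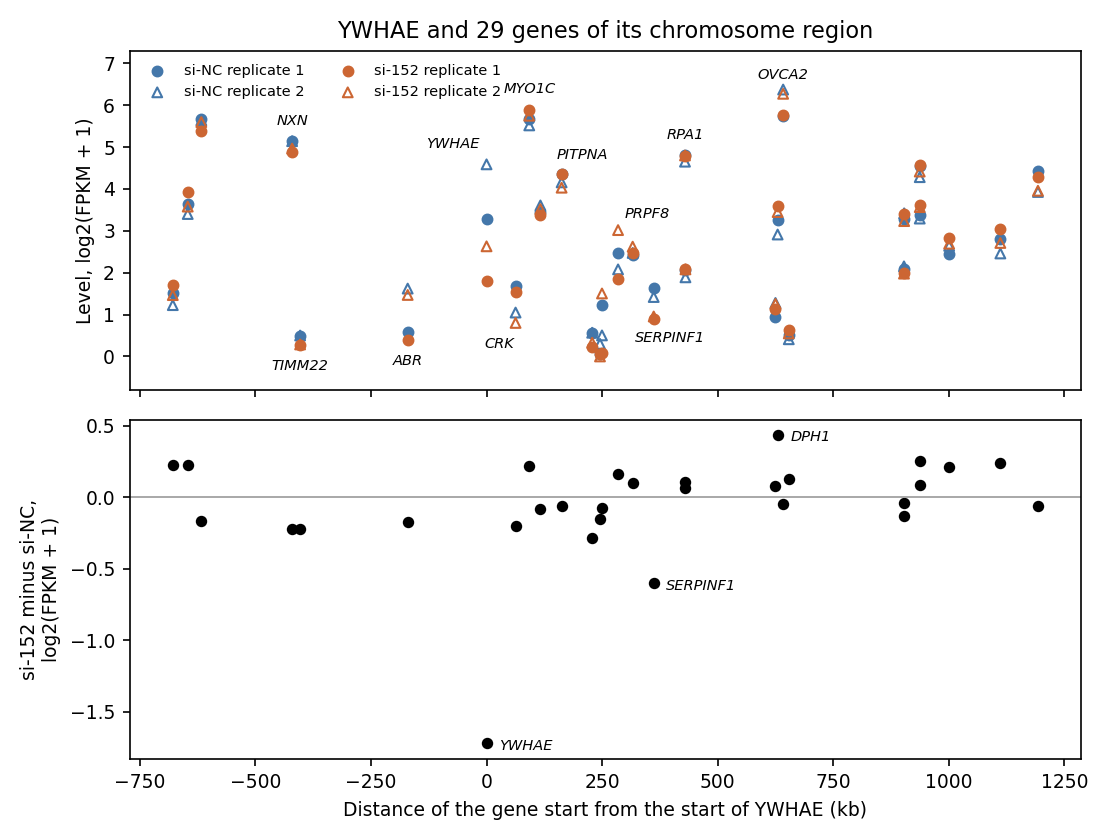
Level (top, log2(FPKM + 1) in each library) and difference between si-152 and si-NC (bottom, same scale) of YWHAE and 29 genes around it, against the distance of each gene start from that of YWHAE in kb. YWHAE lies at -1.72, and the next lowest, SERPINF1, at -0.60.

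The genes most like YWHAE over the 4 libraries were found by the root mean square difference between log2(FPKM + 1) values, each centred on the gene's mean. They were LOC102724828 (0.27), PHLDA2 (0.37), HMOX2 (0.39), LOC105377621 (0.39) and TAF15 (0.43). The imprinted gene PHLDA2 was at 16.7 and 67.7 FPKM under si-NC, against 5.49 and 19.1 FPKM under si-152, and HMOX2, which encodes a heme oxygenase, was at 1.21 and 5.90 FPKM under si-NC, against 0.622 and 1.30 FPKM under si-152. In both, the group ranges overlapped, and si-NC replicate 2 was the highest library, as in YWHAE, at 4.05 and 4.89 times si-NC replicate 1 against 2.62 times in YWHAE. TAF15, an RNA-binding protein of the FET family, was at 10.9 and 13.4 FPKM under si-NC, against 3.40 and 5.91 FPKM under si-152, with no overlap. These genes were picked for their likeness to YWHAE in this contrast, so their differences are a description and were given no test.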

How the data were processed

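RNA of 4 HCT116 transfections was sequenced, and 1 table of gene symbols and values was deposited for each library. The deposited values were taken as FPKM, from their decimals, exact zeros and unequal sums. Per the labels, the processing notes name GRCh38, Trimmomatic, TopHat, HISAT2, HTSeq and DESeq, and the tool and annotation behind these values are not given in the sources used here. Of 19974 rows, 28 carried symbols turned into dates, and 2 symbols were repeated. Groups were taken from the sample titles.

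The test was limma (version 3.58.1, under R 4.3.3) on log2(FPKM + 1), two-sided, with a trend of variance on mean and without a replicate term. It covered the 11222 genes that reached 1 FPKM in 2 libraries or more. On this scale the fold changes of low genes are understated. The study's own test used read counts, which were not used here. Adjustment followed Benjamini and Hochberg over all tested genes. The fit was tested on simulated data. Named genes were the 7 isoforms, list members past either rule, the 3 separated members of each list with the largest differences, CRK and PITPNA, and the 5 genes most like YWHAE. CDC25B and other genes given by role, and ABR, MYO1C, TIMM22 and PRPF8, were chosen after their values were seen. The family, its gene lists and the tests were chosen with earlier results of these data known. Each gene was represented by its transcript with the longest coding sequence in GENCODE release 29 on GRCh38. No sequence of YWHAZ is given, and 1 member of a list is not reported by name here.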

Additional observations from a re-analysis of the deposited data

How the results depend on the processing

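Precision was limited by 2 libraries in each group, and the read depth is unknown. The alternatives were a pseudocount of 0.1, no filter, 1 FPKM in every library, median-ratio size factors, quantile normalization, a replicate block, limma without a trend, and leaving out each library in turn. The other 6 isoforms gave 66 values under these, of which 61 kept their direction, 5 reversed and 0 passed adjustment (lowest adjusted p 0.465 by limma). The changed filters, the replicate block and the fit without a trend leave the log2 difference of an isoform as it is. The values under those settings could therefore not reverse. SFN reversed under quantile normalization (0.069). Without 1 library, the log2 difference of SFN ranged from -0.32 to 0.28 and that of YWHAG from -0.056 to 0.33, with the reversals without si-NC replicate 2 or si-152 replicate 1. YWHAE ranged from -2.37 to -1.08. The ratio of the family sum was 1.13 after quantile normalization and 1.04 to 1.07 without 1 library. Without YWHAE in the sum, it was 1.05 with size factors, 1.15 after quantile normalization and 1.06 to 1.07 without 1 library. The count of genes past the looser rule, 186, was 234 to 531 without 1 library (434 without si-NC replicate 1, 298 without si-NC replicate 2, 531 without si-152 replicate 2). Among clients it was 0 to 2, with 2 without si-NC replicate 1 or si-152 replicate 2, among kinases and phosphatases 0, and among neighbours 0 to 2, with 0 when 1 FPKM was required in every library, since SERPINF1 was then not tested. Other causes were not tested.

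The replicate numbers were not stated to mark a shared day or passage, and with only 2 numbers the pairing was not taken as part of the design. Across 11222 genes, libraries with the same number deviated together from the means of their groups (r = 0.52). With a replicate block, 78 genes passed adjustment against 2 without it, and 209 met the looser rule against 186. Among the 6 other isoforms, the clients and the enzymes, 0 met either rule with the block. Among the neighbours, SERPINF1 met the looser rule with the block, at -0.60 (unadjusted p = 0.00299, adjusted p = 0.103 by limma). SERPINF1 passed the filter on low values through the si-NC libraries alone, so these p-values are a description.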
